A study of Mus musculus with 6 samples.

Results

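Medium spiny neurons are the principal cells of the striatum, and 9 genes by which they are recognised were described here in whole mouse brain with and without TRMT1L, a relative of the tRNA methyltransferase TRMT1. The genes are Drd1, Drd2, Adora2a, Ppp1r1b, Rgs9, Pde10a, Penk, Tac1 and Pdyn. They were chosen by name, and each symbol matched 1 of the 55450 genes counted, annotated as protein-coding in GENCODE M21. Long RNA was sequenced from total brain of 3 animals described as TRMT1L KO and 3 described as WT. The labels give no knockout allele, strain, sex, age or dissection date. The replicates are called biological triplicates, and p-values measure the spread between these libraries. Values per library are given in the order of the library numbers, 1 to 3.

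Medium spiny neurons release GABA and fall into a direct and an indirect output pathway. Direct-pathway cells carry the dopamine receptor encoded by Drd1, which raises cAMP, and make the peptides of Tac1 and Pdyn. Indirect-pathway cells carry the dopamine receptor encoded by Drd2, which lowers cAMP, and the adenosine receptor encoded by Adora2a, which raises it, and they make the enkephalins of Penk. Both kinds share proteins that shape the cAMP and G protein response, among them those of Ppp1r1b, Rgs9 and Pde10a. Penk, Tac1 and Pdyn are also made by neurons of other brain regions. The whole-brain level of any gene given here is a sum over all regions that make its RNA.

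Counts in genes ranged from 31201119 to 36145961 per library. The targeted gene Trmt1l had 1034 to 1279 counts in WT libraries and 93 to 106 in KO libraries, on the side each label implies. CPM here means counts per gene after scaling each library to 1000000 with TMM factors. The brain markers were present in every library: Syt1, of neurons, at 1045 to 1118 CPM, Gad1, of GABA neurons, at 374 to 422 CPM and Mbp, of myelin, at 1552 to 1946 CPM. Reads in no gene made up 50.3% to 52.2% of mapped reads in WT and 48.6% to 49.8% in KO, so that measure parted the groups.

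None of the 9 genes passed the test between KO and WT. The largest difference was in Penk, at a KO over WT fold of 0.870. In edgeR's quasi-likelihood test over 21237 genes, 0 of the 9 were called at an adjusted p of 0.05, where 0.00942% of all genes were. Without adjustment 1 gene, Penk, had a p-value under 0.05, against 7.92% of all genes. The log2 fold change of KO over WT was below 0 for 6 of the 9 genes and above 0 for 3, with a median of -0.04. Over all genes the median was 0.00013 and 49.9% lay below 0. KO and WT libraries overlapped in each of the 9 genes, whereas they were apart for 14.4% of all genes tested. In RNA of whole brain, fewer medium spiny neurons and less of an RNA in each of them cannot be told apart.

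**Figure D1:**
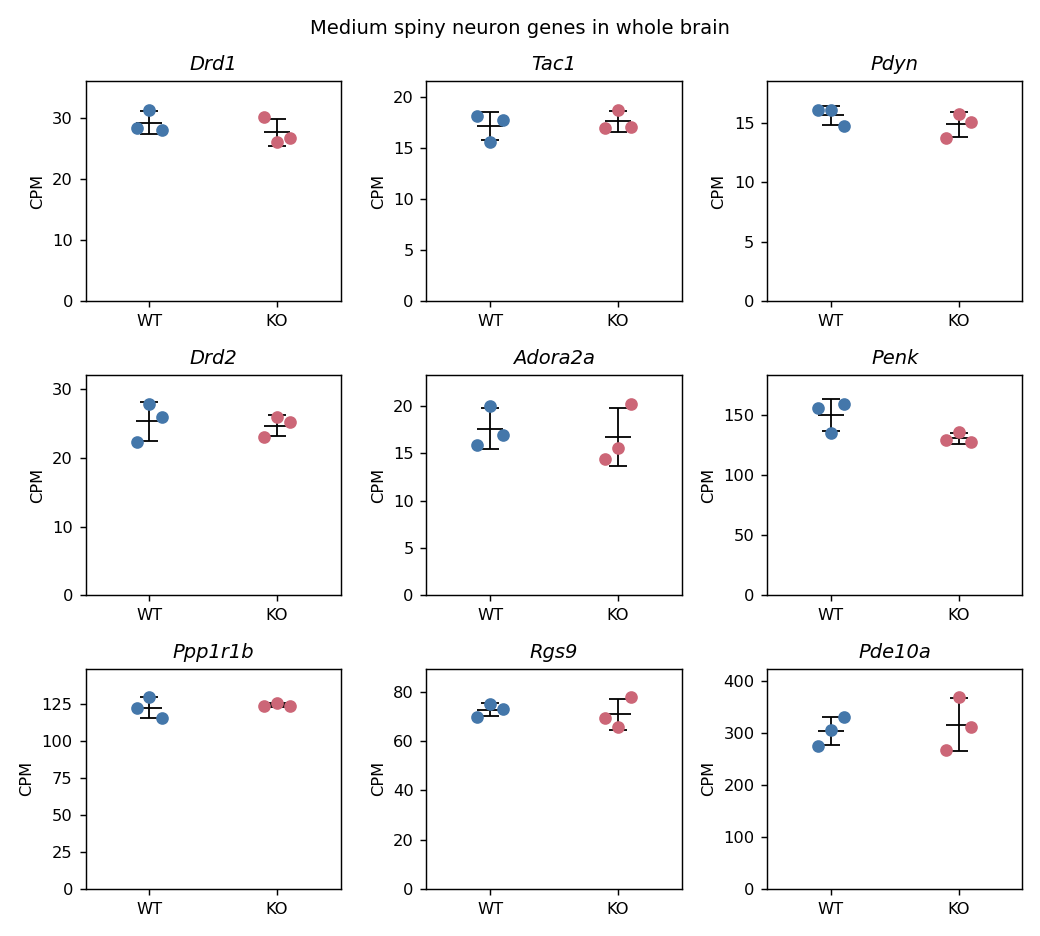
CPM of each gene (vertical axes from 0, scaled per gene) in 3 WT and 3 KO libraries; points are libraries, the black bar is the group mean and its error bars are SD. The points of both groups overlap in all 9 panels, and those of Penk come closest to parting, at 135 to 159 CPM in WT and 127 to 136 CPM in KO.

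Drd1 (ENSMUSG00000021478.6) lies on the minus strand of chromosome 13 from 54051183 to 54055705 in GRCm38. Its counts in the WT libraries were 1031, 981 and 921, and those in the KO libraries 1047, 876 and 965. In CPM these were 28.3, 31.3 and 28.0 in WT and 30.1, 26.0 and 26.7 in KO. KO library 1 lay among the WT libraries, while KO libraries 2 and 3 lay below them. The log2 fold change was -0.08 (SE 0.0730, edgeR adjusted p = 0.812), with a 95% interval from -0.24 to 0.08.

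Tac1 (ENSMUSG00000061762.12) encodes the precursor of substance P and neurokinin A and lies on the plus strand of chromosome 6 from 7554879 to 7565834. WT libraries held 18.1, 15.6 and 17.7 CPM and KO libraries 16.9, 18.7 and 17.1 CPM. Both the lowest library, WT 2, and the highest, KO 2, stood away from the other 4, which lay between 16.9 and 18.1 CPM. KO over WT, the log2 fold change was 0.04 (SE 0.0793, edgeR adjusted p = 0.936, 95% interval -0.14 to 0.21).

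Pdyn (ENSMUSG00000027400.11) encodes the precursor of the dynorphins, opioid peptides that act on the kappa receptor, and lies on the minus strand of chromosome 2 from 129686565 to 129699844. It had the fewest counts of the 9 genes, 476 to 584 per library. WT libraries held 16.0, 16.1 and 14.7 CPM and KO libraries 13.7, 15.7 and 15.1 CPM. KO library 1 was the lowest and the other 5 overlapped. This gave, as log2 fold change, -0.07 (SE 0.0799, edgeR adjusted p = 0.844, 95% interval -0.25 to 0.10).

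The sequence before the start of Tac1 and of Pdyn is shown because the peptide precursor genes of these neurons are known to respond to cAMP and neuronal activity, and because immediate early genes, which respond to the same signals, varied widely between the KO libraries described here. The sequences are from RefSeq on GRCm38.p6 and run 5′ to 3′ on the gene's strand. They end before the first base annotated as transcribed at that end. Capitals mark the letters TGCGTCA, a variant of the cAMP response element.
Tac1, chr6:7554811-7554878, plus strand: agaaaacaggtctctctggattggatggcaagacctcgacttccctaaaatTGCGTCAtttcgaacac
Pdyn, chr2:129699939-129700188, minus strand: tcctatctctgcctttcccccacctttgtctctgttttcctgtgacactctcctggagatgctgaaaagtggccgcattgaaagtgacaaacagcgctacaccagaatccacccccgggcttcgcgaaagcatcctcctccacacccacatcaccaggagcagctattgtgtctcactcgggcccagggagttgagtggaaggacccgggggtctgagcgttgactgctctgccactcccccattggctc
RefSeq windows were matched for 6 of the 9 genes, Drd1, Drd2, Rgs9, Pde10a, Tac1 and Pdyn. Not all of these windows lie before the gene as GENCODE M21 has it. The window of Pde10a ends at a RefSeq start 276373 bases inside the GENCODE gene and lies wholly within it, while the last 182 bases of the Tac1 window and the last 47 of the Drd1 window fall in their GENCODE genes. The windows of Drd2, Rgs9 and Pdyn lie wholly before theirs. In the 250 bases before the RefSeq start, on both strands, TGCGTCA was found in Tac1 alone among these 6, where it begins 199 bases before that start. It occurs in 1.75% of the 32851 windows of this length. The full element TGACGTCA (1.55% of windows) and the AP-1 motif TGACTCA (4.46%) were in none of the 6, which says only that these letters are not in these windows. The 3 motifs do not contain each other.

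Immediate early genes, which neurons switch on within minutes of activity, were summed over the 9 tested of 10 listed. They reached 283 to 342 CPM in WT and 453, 393 and 204 CPM in KO. In the same KO libraries Tac1 stood at 16.9, 18.7 and 17.1 CPM and Pdyn at 13.7, 15.7 and 15.1 CPM. Penk stood at 129, 136 and 127 CPM. Whether the peptide precursor genes moved with the immediate early genes was not tested.

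Drd2 (ENSMUSG00000032259.8) lies on the plus strand of chromosome 9 from 49340627 to 49408177. It was measured at 22.3, 27.9 and 25.9 CPM in WT and 23.0, 25.9 and 25.2 CPM in KO. The KO libraries all fell within the range of the WT libraries. The log2 fold change was -0.04 (SE 0.0850, edgeR adjusted p = 0.937, 95% interval -0.22 to 0.15).

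Adora2a (ENSMUSG00000020178.6) lies on the plus strand of chromosome 10 from 75316877 to 75334784. It was the most variable of the 9 genes, at 15.9, 20.0 and 16.9 CPM in WT and 14.4, 15.5 and 20.3 CPM in KO. WT library 2 and KO library 3 were high and the other 4 lay together. Its highest library was 1.40 times its lowest. KO over WT, the log2 fold change was -0.07 (SE 0.125, edgeR adjusted p = 0.913), and the 95% interval, from -0.34 to 0.20, was the widest of the 9.

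Penk (ENSMUSG00000045573.9) encodes the precursor of Met- and Leu-enkephalin and lies on the minus strand of chromosome 4 from 4133531 to 4138819. Its counts in the WT libraries were 5650, 4229 and 5240, and those in the KO libraries 4469, 4564 and 4589. In CPM these were 155, 135 and 159 in WT and 129, 136 and 127 in KO. WT libraries 1 and 3 were above every KO library, and WT library 2 lay just below KO library 2. WT libraries averaged 150 ± 13.1 CPM and KO libraries 130 ± 4.58 (SD, n = 3), a fold of 0.870 with a 95% interval from 0.793 to 0.955.

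The log2 fold change of Penk was -0.20 (SE 0.0616), with an unadjusted edgeR p of 0.00720 that rose to 0.576 on adjustment over all genes, so it did not pass. With 1 library left out at a time it lay between -0.27, without WT library 2, and -0.15. Without a filter on low counts it passed, at -0.20 with an edgeR adjusted p-value of 0.0330, in a fit that called 298 genes in place of 2. Adjusted p-values of Penk over all alternatives ran from 0.0330 to 0.861. The share of reads in no gene moved with the genotypes as well, and its part in this value was not tested.

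**Figure D2:**
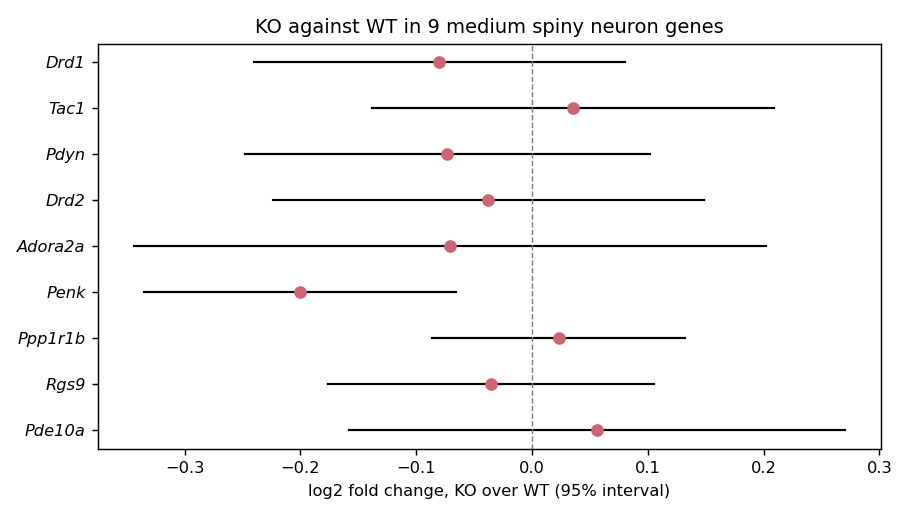
Log2 fold change of KO over WT (horizontal axis) for each gene, with bars for the 95% interval from edgeR's test, not adjusted for the number of genes. The interval of Penk, -0.34 to -0.07, lies below 0, and the intervals of the other 8 genes include 0.

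Ppp1r1b (ENSMUSG00000061718.12) encodes a phosphoprotein that inhibits protein phosphatase-1 once protein kinase A has phosphorylated it. It lies on the plus strand of chromosome 11 from 98348404 to 98357796. It was the steadiest of the 9 genes, at 122, 129 and 115 CPM in WT and 124, 125 and 123 CPM in KO. The KO libraries lay close to each other, inside the WT range. This gave, as log2 fold change, 0.02 (SE 0.0499, edgeR adjusted p = 0.933, 95% interval -0.09 to 0.13).

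Rgs9 (ENSMUSG00000020599.13) encodes a regulator that speeds the shut-off of G proteins and lies on the minus strand of chromosome 11 from 109225355 to 109298129. It was measured at 69.9, 75.2 and 73.0 CPM in WT and 69.4, 65.5 and 77.7 CPM in KO. KO library 2 was the lowest and KO library 3 the highest of the 6. The log2 fold change was -0.04 (SE 0.0643, edgeR adjusted p = 0.916, 95% interval -0.18 to 0.10).

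Pde10a (ENSMUSG00000023868.17) encodes a phosphodiesterase that breaks down cAMP and cGMP. It spans 461277 bases of the plus strand of chromosome 17, from 8525372 to 8986648. It had 9296 to 12415 counts per library, the most of the 9 genes. WT libraries held 275, 307 and 330 CPM and KO libraries 268, 369 and 312 CPM. KO library 1 was the lowest and KO library 2 the highest, on either side of all WT libraries. KO over WT, the log2 fold change was 0.06 (SE 0.0979, edgeR adjusted p = 0.911, 95% interval -0.16 to 0.27).

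Counting error was small beside the spread between libraries for the abundant genes. Pde10a varied by 11.98% over the 6 libraries (SD over mean), where its counts alone give 0.972%, and Penk by 9.83% against 1.44%. Tac1 and Pdyn varied by 6.23% and 6.09%, where their counts give 4.10% and 4.38%. Ppp1r1b had the smallest variation, 3.79% against 1.54% from counting.

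Levels were compared between genes as CPM per kilobase of annotated exon, as means over all 6 libraries. Penk was the highest at 85.7 ± 8.43 (SD, n = 6), followed by Ppp1r1b at 42.0 ± 1.59 and Pde10a at 24.1 ± 2.89. Rgs9 (11.2 ± 0.688) and Drd2 (9.84 ± 0.817) came next and overlapped in their libraries. Drd1 followed at 7.83 ± 0.552. Adora2a (5.61 ± 0.797), Pdyn (5.27 ± 0.321) and Tac1 (5.10 ± 0.318) were lowest, and neighbours among these overlapped. By this measure the enkephalin precursor stood well above both direct-pathway peptide precursors, which were below Drd1 and Drd2 in every library. Exon length here joins all annotated isoforms, so a gene with many of them, such as Pde10a, may be set too low.

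Antisense neighbours mattered for the counting of Ppp1r1b and Penk. The antisense transcript 1700003D09Rik overlaps 460 exonic bases of Ppp1r1b, and A830012C17Rik overlaps 233 of Penk. Counted without regard to strand, where reads in both genes are dropped, Ppp1r1b kept 56.0% of its stranded counts and Penk 91.6%, while the other 7 genes kept 100.1% to 100.5%. The antisense genes themselves had at most 4 and 24 counts in a library. On the strand opposite to each of the 9 genes, counts were at most 0.475% of the sum of both strands, so nearly all reads came from the genes' own strand.

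Genes of the direct and indirect pathways were compared as ratios of counts within a library, each count a sum over the whole brain. In WT the log2 ratio of Drd2 to Drd1 was -0.34, -0.16 and -0.11, and in KO it was -0.39, -0.0049 and -0.08. KO library 1 was the lowest and KO libraries 2 and 3 the highest, so the groups overlapped. The difference of KO from WT was 0.05 (exact permutation test, two-sided, p = 0.7). For Adora2a to Drd1 the log2 ratio was -0.83, -0.64 and -0.73 in WT and -1.06, -0.75 and -0.40 in KO, with a difference of -0.00081 (exact permutation p = 1). The KO libraries were spread more widely, with an SD of 0.332 against 0.0959 in WT. The receptor ratios showed no difference beyond the spread between libraries.

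The ratio of Penk to Tac1 parted the groups, and that of Penk to Pdyn, the other direct-pathway peptide precursor, did not. The log2 ratio of Penk to Tac1 was 3.10, 3.11 and 3.17 in WT and 2.93, 2.86 and 2.89 in KO. Every KO library lay below every WT library, and the gap between the groups was wider than the range within either. The means were 3.13 ± 0.0369 in WT and 2.89 ± 0.0346 in KO (SD, n = 3), a difference of -0.24. The exact permutation test, two-sided, gave p = 0.1, the smallest value that 3 against 3 libraries allow, and 0.3 after Benjamini-Hochberg adjustment over the 3 ratios. Without any single library the difference stayed between -0.25 and -0.21. Neither Penk nor Tac1 passed the gene test alone. The log2 ratio of Penk to Pdyn, a pair added after the values were seen and given without a test, was 3.27, 3.07 and 3.44 in WT and 3.23, 3.11 and 3.07 in KO, and the groups overlapped.

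**Figure D3:**
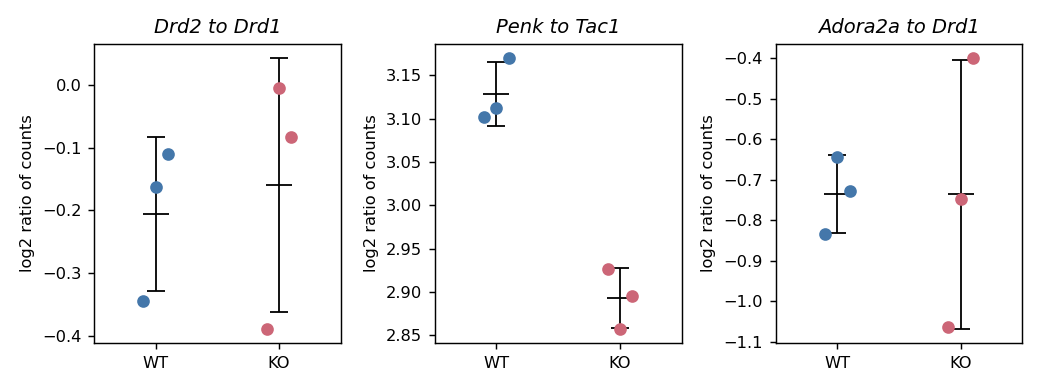
Log2 ratio of counts within a library (vertical axes, each with its own range and not starting at 0) for 3 pairs of genes in 3 WT and 3 KO libraries; points are libraries and bars are the mean with SD. WT and KO overlap for Drd2 to Drd1 and Adora2a to Drd1, and do not for Penk to Tac1, at 3.10 to 3.17 in WT and 2.86 to 2.93 in KO.

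Other genes of the striatal pathways were taken from 5 lists. Of their 66 genes 64 had enough counts to be tested, and 0 were called by edgeR after adjustment, in either direction (5 without adjustment, 0 higher and 5 lower in KO, where 4.54% of all genes were higher and 3.38% lower). Limma-voom also called 0 of the 64. So did DESeq2, where any gene left without an adjusted p-value was counted as not called.

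Direct-pathway genes were Sfxn1, Ebf1, Chrm4, Eya1, Slc35d3 and Isl1, with a median log2 fold change of -0.06, 2 above 0 and 4 below. Chrm4, the muscarinic receptor that opposes Drd1 signalling, was at 15.5 ± 1.08 CPM in WT against 16.3 ± 2.01 CPM in KO (SD, n = 3). Sfxn1, a mitochondrial serine transporter, was at 46.6 ± 1.56 and 47.8 ± 2.56 CPM, the transcription factor gene Ebf1 at 33.9 ± 0.976 and 31.2 ± 1.95 CPM, and Eya1 at 12.6 ± 1.02 and 11.7 ± 0.455 CPM. For the 4 indirect-pathway genes the median was 0.10. Gpr6, an orphan receptor of these cells, was at 4.56 ± 0.0502 CPM in WT against 5.05 ± 0.348 CPM in KO, with every KO library above every WT library, as for 7.46% of all genes (edgeR adjusted p = 0.772). The transcription factor gene Sp9 was at 3.65 ± 1.14 and 4.06 ± 0.584 CPM, the kainate receptor gene Grik3 at 140 ± 4.63 and 145 ± 8.50 CPM, and Ptprm at 91.5 ± 2.43 and 91.1 ± 3.01 CPM.

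Genes shared by both kinds of medium spiny neuron numbered 20, with a median log2 fold change of -0.06, 7 above 0 and 13 below. All 4 of them with an unadjusted p-value under 0.05 were lower in KO. They included the cannabinoid receptor gene Cnr1 (-0.18, SE 0.0600), Gpr155 (-0.12, SE 0.0490) and the scaffold gene Strn (-0.11, SE 0.0483). Their edgeR adjusted p-values were 0.576 for Cnr1 and 0.622 for Gpr155 and Strn. For Gpr155 and Strn every KO library lay below every WT library, as for 6.97% of all genes. Cnr1 passed only without a filter on low counts, at -0.18 (edgeR adjusted p = 0.0487, and up to 0.861 with other settings). Of the other abundant genes of this list, Arpp21, whose protein is a cAMP-regulated phosphoprotein, was at 515 ± 32.1 CPM in WT and 497 ± 13.3 CPM in KO, and the phosphodiesterase gene Pde1b at 193 ± 10.8 and 184 ± 5.78 CPM.

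G protein and cAMP signalling genes also numbered 20, with a median of 0.02, 12 above 0 and 8 below. The 1 gene with an unadjusted p-value under 0.05 was Gnal, which encodes the stimulatory G protein subunit that couples Drd1 and Adora2a to adenylyl cyclase in the striatum. It was at 252 ± 9.71 CPM in WT and 228 ± 9.06 CPM in KO (log2 fold change -0.14, SE 0.0467, edgeR adjusted p = 0.576). Every KO library lay below every WT library, as for 6.97% of all genes. The adenylyl cyclase gene Adcy5 was at 232 ± 8.42 and 234 ± 9.41 CPM and Gnb5, a partner of the Rgs9 protein, at 92.8 ± 0.676 and 94.8 ± 2.66 CPM. The most abundant genes of the list were Ppp3ca, which encodes a catalytic subunit of calcineurin, at 825 ± 24.9 and 780 ± 25.5 CPM, Prkar1a at 503 ± 34.1 and 521 ± 15.1 CPM, Prkar1b at 434 ± 10.3 and 451 ± 14.8 CPM and Prkacb at 402 ± 14.8 and 402 ± 10.3 CPM. The last 3 encode subunits of protein kinase A. 

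Related receptors and precursors numbered 16, of which 14 were tested, with a median of 0.02. The adenosine receptor gene Adora1 was at 187 ± 4.38 CPM in WT and 195 ± 12.2 CPM in KO. The receptors for the opioid peptides of Penk and Pdyn were at 15.6 ± 1.32 and 17.3 ± 2.03 CPM for Oprd1, 12.4 ± 0.493 and 12.3 ± 0.622 CPM for Oprm1 and 13.1 ± 0.782 and 11.4 ± 1.14 CPM for Oprk1. Oprl1, the nociceptin receptor gene, was at 35.8 ± 0.829 and 37.2 ± 0.480 CPM. Tacr1, which encodes the substance P receptor, was at 9.51 ± 1.09 and 9.64 ± 0.709 CPM. Gpr6, Sp9, Grik3 and Ptprm are the 4 of 5 genes of their list that matched a symbol in GENCODE M21, while Gpr155, Gnal, Adcy5, Gnb5, Oprk1 and Tacr1 were chosen after their values were seen.

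**Figure D4:**
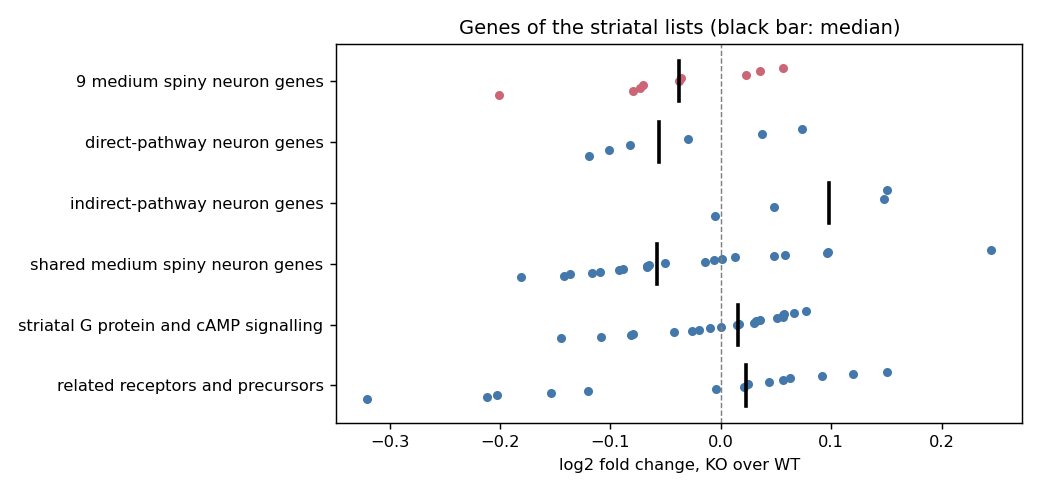
Log2 fold change of KO over WT (horizontal axis) for each tested gene of the 9 medium spiny neuron genes and of the 5 striatal lists (rows); each point is a gene and the black bar is the median. The medians lie between -0.06 and 0.10, and no point passed edgeR's test over all genes.

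Each library was high in some of the 9 genes and low in others. As deviations of log2 CPM from the mean of the 6 libraries, their average was -0.02, 0.06 and 0.03 in WT and -0.09, 0.0083 and 0.02 in KO. In KO library 1, the lowest, Adora2a (-0.24), Pde10a (-0.20) and Pdyn (-0.15) were low and Drd1 (0.09) was high. In KO library 2 Pde10a (0.26) was high, while Adora2a (-0.13), Rgs9 (-0.13) and Drd1 (-0.12) were low. In WT library 2 Adora2a (0.23), Drd2 (0.16) and Drd1 (0.14) were high and Tac1 (-0.15) was low. No library was above average, or below it, in all 9 genes.

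**Figure D5:**
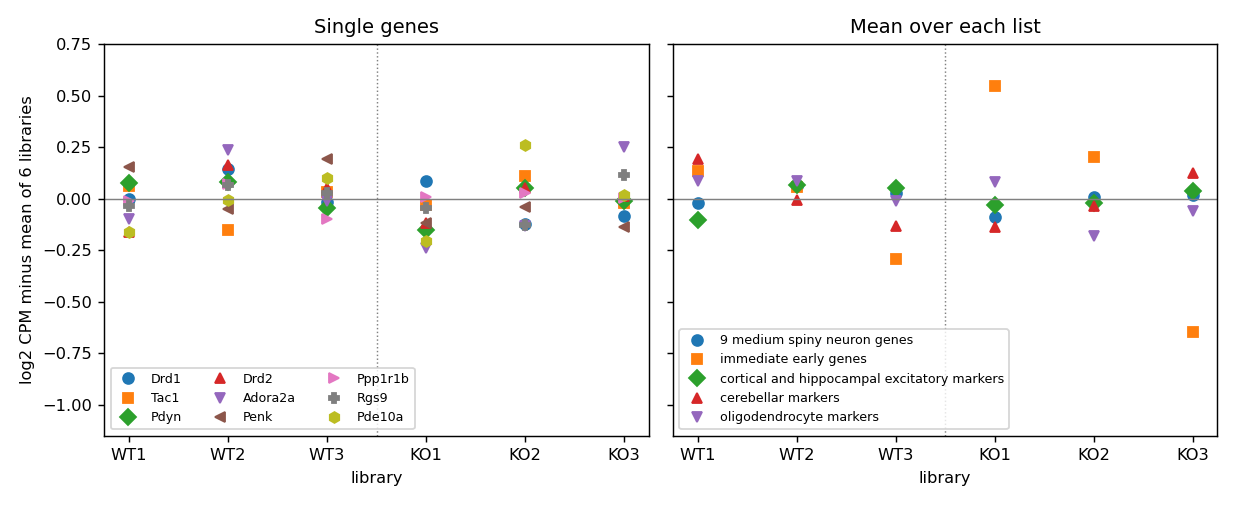
Deviation of log2 CPM from the mean of the 6 libraries (vertical axis) in each WT and KO library (horizontal axis), for the 9 single genes on the left and as means over lists of markers on the right. The mean of the 9 genes stays between -0.09 and 0.06, while that of immediate early genes runs from -0.65 in KO library 3 to 0.55 in KO library 1.

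Markers of other regions and cells were read beside these values, as summed CPM per library. Cortical and hippocampal excitatory markers ranged from 2362 to 2783 in WT and 2506 to 2623 in KO, cerebellar markers from 958 to 1196 and 949 to 1128, and striatal interneuron markers from 331 to 341 and 318 to 342. Midbrain dopamine neuron markers ranged from 140 to 153 and 146 to 156, and astrocyte and microglia markers from 1245 to 1288 and 1197 to 1376. These 5 sums overlapped between the groups, as did oligodendrocyte markers, at 4229 to 4651 in WT and 3648 to 4357 in KO. The sum of thalamic and hypothalamic markers did not overlap, at 497 to 509 in WT and 456 to 489 in KO. Most of it was Rora, at 267 to 288 CPM in WT and 249 to 265 CPM in KO. With each gene of that list weighted alike, the mean deviation of log2 CPM was 0.00034, -0.20 and 0.28 in WT and -0.04, -0.09 and 0.05 in KO, and the groups overlapped. Of the 60 marker genes of these 7 lists 58 were tested and 0 called by edgeR over all genes (without adjustment 2 were higher and 5 lower, 3.45% and 8.62% of the 58, where 4.54% of all genes were higher and 3.38% lower). The dopamine neuron factor Pitx3, at 0 to 4 counts, and the hypothalamic peptide gene Agrp, at 6 to 18, had too few counts to be tested.

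Outside the 9 genes, the 5 genes with the most similar profile over the 6 libraries were Ccny, Ikzf5, Gtf3c2, Gm38120 and Smurf2. Likeness was the root mean square distance, over 6 libraries, between a gene's deviations of log2 CPM and the average deviations of the 9 genes. It ran from 0.0161 for Ccny to 0.0228 for Smurf2, among 10677 genes with at least 5 CPM and at least as much variation as that average.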

How the data were processed

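Read counts per gene were deposited by the authors as raw whole numbers, 1 table per library, not normalized. Per the submitters' processing notes cutadapt 1.9.1 and STAR 2.7.0f were used. Per the labels' protocols long RNA was size-selected for a TruSeq total RNA kit. Genome build and annotation are not given in the sources used here. All 55450 gene IDs occur in GENCODE M21 (GRCm38), the source of names, positions and exon lengths. The last column was used, as it held at least 80% of stranded counts in every library.

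Genes were kept with filterByExpr of edgeR 4.0.16 (R 4.3.3), scaled with TMM factors and tested with glmQLFTest on genotype alone, with Benjamini-Hochberg adjustment over 21237 genes. Intervals of 95% use the test's SE and degrees of freedom. Log2 CPM used a prior count of 2. Ratios were tested by exact permutation. The test was checked on simulated data. Libraries of a group differed beyond sampling noise (chi-square per degree of freedom 4.39 to 9.35). Named genes are the 9, the 4 most abundant of each striatal list, any past the threshold and the 5 nearest profiles. Others were chosen after their values were seen. The 9 genes, lists and tests were chosen with earlier results of these data known. DESeq2 1.42.0, limma-voom 3.58.1 and other settings served as alternatives. The result for 1 gene of the striatal lists is not reported here, and it remains in the fits and counts.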

Additional observations from a re-analysis of the deposited data

How the results depend on the processing

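Calls among the 9 genes (0), the striatal lists (0) and all genes (2) were the same with limma-voom, a filter at a mean count of 50, scaling by totals or by DESeq2 size factors, and the unstranded column. Without a filter they were 1 (Penk), 1 (Cnr1) and 298, with the DESeq2 Wald test 0, 0 and 26, and with the replicate block 0, 0 and 4. DESeq2 gave no adjusted p-value for Drd1, Drd2, Adora2a, Tac1 and Pdyn, so these genes could not be called there. Leaving out 1 library gave 0, 0 and 2 to 5, the 5 without KO library 3. Same-numbered libraries correlated at 0.040, -0.031 and -0.058 in their deviations across genes, and 1 of 6 correlated best with its own number, so the numbers did not pair libraries.

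With 1 library left out, small log2 fold changes turned sign. Drd2 ran from -0.12 to 0.037, above 0 without WT library 2 or KO library 1 (0.010). Adora2a ran from -0.23 to 0.031, above 0 without the same libraries (0.025 without KO library 1). Ppp1r1b ran from -0.017, without WT library 3, to 0.066, and Rgs9 from -0.11 to 0.018, without KO library 2. Pde10a ran from -0.070, without KO library 2, to 0.16, and was -0.010 without WT library 1. Tac1 ran from -0.025, without WT library 2, to 0.078, and was -0.012 without KO library 2. The difference in the ratio of Drd2 to Drd1 ran from -0.030, without KO library 2, to 0.16, and was -0.022 without WT library 1. That of Adora2a to Drd1 ran from -0.17 to 0.16, above 0 without WT libraries 2 (0.045) and 3 (0.0029) and KO libraries 1 (0.16) and 2 (0.0045). The cause was not tested. Drd1, Pdyn and Penk kept their sign in all 14 alternatives, but Drd1 ran from -0.15, without KO library 1, to -0.027, without WT library 2, and Pdyn from -0.12, without KO library 2, to -0.020, without KO library 1. Counting error was the largest for Pdyn, at 4.38%.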
